A study of Mus musculus with 14 samples.

Results

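Atf4 and the genes of the unfolded protein response were followed in skeletal muscle of mice with and without endothelial c-Myc overexpression. The set held 10 genes, namely Atf4, Atf5, Ddit3, Trib3, Asns, Chac1, Sesn2, Hspa5, Xbp1 and Fgf21, chosen by symbol from the 54532 genes of the count table. All 10 were found, and 9 of them passed the filter on low counts that left 15458 genes for testing. Fgf21 did not pass it. The symbol Ddit3 stood beside a pair of identifiers, of which the other had 0 counts in every library.

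When the endoplasmic reticulum (ER) fills with unfolded protein, the kinase PERK phosphorylates the translation factor eIF2, general protein synthesis slows, and the messenger RNA of the transcription factor Atf4 is translated more. Related kinases set off the same step when amino acids, heme or mitochondrial function fail, and other sensors act through Atf6 and through splicing of Xbp1. In muscle, mitochondrial stress is known to engage Atf4 and the secreted factor Fgf21. Protein, phosphorylation and splicing were not analysed here, and every value is a level of messenger RNA.

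All libraries came from male FVB/N mice. EC-Myc OE mice carried a Y-linked tetO transgene of human MYC, driven by the transactivator tTA under the endothelial Cdh5 promoter. It was induced between 4 and 6 weeks of age by withdrawing the doxycycline diet TD.01306. CT mice were littermates with the tetO transgene and no tTA. Either genotype was fed control diet TD.08485 (CTD) or the western-style high-fat diet TD.88137 (WD) for 20 weeks by the labels, while the text on the transcriptome gives a shorter time. Polyadenylated RNA of whole soleus and gastrocnemius was sequenced, so endothelial cells, the cells that express the transgene, were a minority of each sample. The labels give neither the muscle each library came from nor the age at harvest.

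By their labels, 3 libraries were CT-CTD, 3 were CT-WD, 4 were OE-CTD and 4 were OE-WD, and a number after a group's name is the replicate. The replicate numbers printed with the transcriptome would match these labels only if CT-WD and OE-CTD traded names. The difference in Zbtb16 that the study's results give between the genotypes on WD has the direction and size found here between OE-WD and OE-CTD, as it would after such a trade. By the labels, mean Zbtb16 was 100.2 CPM in OE-WD, 42.7 CPM in OE-CTD and 145 CPM in CT-WD, and this gene was picked with its values known. The study gives most altered genes between the diets in CT, fewer in EC-Myc OE, and fewest between the genotypes on WD. In that order, genes altered here over 1.5-fold at an unadjusted edgeR p under 0.05 numbered 471, 212 and 887 by the labels. With the names exchanged they would number 1101, 887 and 212. The labels were kept, so every genotype and diet value rests on them, and the exchange was run as an alternative. The labels do not say that replicates are separate animals, so p-values measure only the spread between these samples, which may be technical. In the descriptions of the libraries, OE-CTD 1 to 3 share a number in their names and so do OE-WD 1 to 4, whereas every CT library has its own, and what the numbers stand for is not given. OE-CTD 1 to 3 differed from one another by a chi-square of 8.02 to 10.97 per degree of freedom, OE-WD 1 to 3 by 8.78 to 15.8, and CT libraries of a group by 17.65 to 53.2. OE-WD 4, which has the shared number too, differed from OE-WD 1 to 3 by 40.8 to 44.55, so a shared number did not always go with closeness. If libraries with a shared number have a common source, the EC-Myc OE groups hold fewer independent samples than the tests took them to hold. Counted reads were between 24101226 and 25054855 in CT-CTD, between 21833839 and 26518734 in CT-WD, between 22083340 and 28519159 in OE-CTD, and between 22033140 and 27698046 in OE-WD. Levels are CPM, which are counts scaled to library size after TMM normalization, or FPKM where genes of different length are compared.

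Markers of the labelled tissue were abundant in every library. The 10 skeletal muscle markers summed to between 124500 and 181100 CPM in each library, led by Myh4, and none was at 0. Several libraries stood apart from their groups. OE-CTD 4 and OE-WD 4 had the lowest TMM factors (0.888 and 0.899) and the highest share of mitochondrial counts (14.9% and 14.5%), and the muscle markers summed highest there (176100 and 181100 CPM). CT-WD 1 had more RNA of connective tissue and skin than the other CT-WD libraries. Its fibroblast markers summed to 1339 CPM against 411 and 403 CPM, its tendon markers to 478 CPM against 84.1 and 107 CPM, and its epidermis markers to 92.5 CPM against 8.89 and 10.7 CPM. In OE-WD 2 fibroblast markers (2243 CPM against 917 to 1230.0 CPM) and tendon markers (845 CPM) were the highest of all libraries, and epidermis markers stood at 83.1 CPM in OE-WD 2 and 124.5 CPM in OE-WD 3 against 15.8 CPM in OE-WD 1. Each library was left out in turn for fold changes of the tested genes of the set, most named pathway genes, and counts of altered genes. Medians and counts of marker and state lists are given with all libraries only. Shares of all tested genes are those in edgeR with all libraries and the filter on low counts. Counts under other settings have no such share beside them, apart from the exchange of group names.

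Ordered by mean FPKM over the 14 libraries, the genes fell into an abundant and a scarce class. Chac1 stood at 101 FPKM, Atf4 at 76.9, Hspa5 at 70.7, Atf5 at 39.8, Xbp1 at 23.35 and Ddit3 at 10.75 FPKM. Sesn2 was at 1.22, Trib3 at 0.892, Asns at 0.675 and Fgf21 at 0.0880 FPKM. The ranges of Chac1 (32.55 to 176), Atf4 (65.4 to 107) and Hspa5 (49.9 to 108) overlapped, so their order does not exceed the spread over libraries. Those of Atf5 (28.3 to 49.7) and Xbp1 (19.2 to 29.5) overlapped too, but Atf5 stood above Xbp1 in each of the 14 libraries. The ranges of Sesn2 (0.913 to 1.59), Trib3 (0.595 to 1.27) and Asns (0.3155 to 1.19) overlapped, with Sesn2 above the others in every library. Ddit3 (6.85 to 15.7 FPKM) overlapped with neither Xbp1 nor Sesn2.

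How far a gene varied over the 14 libraries did not follow its abundance. Chac1 had the widest range of the 9 tested genes, with a highest CPM 5.39-fold over the lowest. Asns followed with 3.78-fold, then Ddit3 with 2.34-fold, Hspa5 with 2.19-fold and Trib3 with 2.16-fold. Sesn2 (1.77-fold), Atf5 (1.74-fold), Atf4 (1.63-fold) and Xbp1 (1.54-fold) varied least. By the SD of log2 CPM, Chac1 stood at percentile 86.1 of all tested genes and Xbp1 at percentile 31.2.

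Atf4 (ENSMUSG00000042406, chr15:80255184-80257541 of GRCm38, plus strand) is the transcription factor on which the eIF2 kinases converge. Its level was 159, 153 and 162 CPM across CT-CTD 1 to 3, and 176, 187 and 231 CPM across CT-WD 1 to 3. It was 163, 165, 167 and 142 CPM across OE-CTD 1 to 4, and 179.5, 141, 157 and 142 CPM across OE-WD 1 to 4. The 3 CT-WD libraries lay above all CT-CTD and OE-CTD libraries, and OE-WD 1 reached into their range.

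Atf5 (ENSMUSG00000038539, chr7:44812256-44816658, minus strand), a related factor translated under the same control, was the gene whose level separated the genotypes as labelled. It stood at 64.6, 51.3 and 56.2 CPM across CT-CTD 1 to 3, and at 69.1, 61.7 and 71.8 CPM across CT-WD 1 to 3. In OE-CTD 1 to 4 it stood at 81.6, 75.4, 77.4 and 89.3 CPM, and in OE-WD 1 to 4 at 74.4, 81.0, 75.9 and 84.7 CPM. All 8 EC-Myc OE libraries lay above all 6 CT libraries. With CT-WD and OE-CTD exchanged these 8 libraries would be the WD libraries, so this separation, like those of Eif4ebp1 and Pdia4, would be by diet. The strand setting of the counting is not given in the sources used here, and 82 of the 1993 exon bases of Atf5 (4.11%) are shared with Nup62 (33.2 CPM) on the opposite strand. The same number of bases is shared with Il4i1 (0.15 CPM), so reads of Atf5 and of these neighbours cannot be told apart there.

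Ddit3 (ENSMUSG00000025408, chr10:127290774-127296288, plus strand) encodes CHOP, the factor tied to cell death under lasting ER stress. Its level was 11.8, 16.3 and 17.8 CPM across CT-CTD 1 to 3, and 19.5, 13.7 and 15.3 CPM across CT-WD 1 to 3. It was 20.8, 18.2, 19.4 and 10.6 CPM across OE-CTD 1 to 4, and 24.7, 18.0, 19.3 and 10.9 CPM across OE-WD 1 to 4. The lowest values were those of OE-CTD 4 and OE-WD 4, the libraries richest in muscle markers, and all 4 groups overlapped. Of its 1713 exon bases, 68 (3.97%) are shared with Mars (87.9 CPM) and 13 with Gm4189 on the opposite strand. Mars was at 24.1 to 35.4 FPKM, above Ddit3. How reads over the shared bases were counted was not assessed, so the error from them is not known.

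Trib3 (ENSMUSG00000032715, chr2:152337422-152344032, minus strand), a pseudokinase induced by Atf4 and CHOP, was scarce. Its counts ran from 27 to 69. It stood at 1.31, 1.46 and 1.67 CPM across CT-CTD 1 to 3, and at 2.50, 1.74 and 1.20 CPM across CT-WD 1 to 3. In OE-CTD 1 to 4 it stood at 1.96, 2.14, 2.47 and 1.58 CPM, and in OE-WD 1 to 4 at 1.95, 1.16, 1.36 and 1.81 CPM. CT-WD 1 was the highest and OE-WD 2 the lowest of the 14, and the groups overlapped.

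Asns (ENSMUSG00000029752, chr6:7675169-7693254, minus strand), asparagine synthetase, is a standard Atf4 target. It gave 2.33, 1.09 and 0.794 CPM across CT-CTD 1 to 3, and 3.001, 1.31 and 1.11 CPM across CT-WD 1 to 3. It gave 1.34, 1.55, 1.44 and 2.19 CPM across OE-CTD 1 to 4, and 1.87, 1.86, 1.83 and 1.93 CPM across OE-WD 1 to 4. The OE-WD libraries lay close together, while CT-CTD 1 and CT-WD 1 stood well above their group mates.

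Chac1 (ENSMUSG00000027313, chr2:119351229-119354381, plus strand) degrades glutathione and is a target of Atf4. Its level was 193.5, 119 and 49.0 CPM across CT-CTD 1 to 3, and 218.5, 172.5 and 153 CPM across CT-WD 1 to 3. It was 122, 144, 198 and 152 CPM across OE-CTD 1 to 4, and 264, 93.3, 103 and 137 CPM across OE-WD 1 to 4. Single libraries decided its group means, with CT-CTD 3 the lowest and OE-WD 1 the highest of the 14.

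Sesn2 (ENSMUSG00000028893, chr4:132492032-132510501, minus strand), a sestrin that restrains mTORC1, had 3.72, 3.10 and 2.98 CPM across CT-CTD 1 to 3, and 4.99, 3.24 and 3.16 CPM across CT-WD 1 to 3. It had 4.18, 3.63, 5.07 and 2.86 CPM across OE-CTD 1 to 4, and 4.40, 4.49, 4.89 and 3.58 CPM across OE-WD 1 to 4. The groups overlapped, and CT-WD 1 was again the highest of its group.

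Hspa5 (ENSMUSG00000026864, chr2:34771970-34777547, plus strand) encodes BiP, the main Hsp70 chaperone of the ER. It was at 198, 192 and 241 CPM across CT-CTD 1 to 3, and at 224, 216 and 301 CPM across CT-WD 1 to 3. It was at 275, 268, 312 and 343 CPM across OE-CTD 1 to 4, and at 420.1, 281, 280.4 and 280.1 CPM across OE-WD 1 to 4. The OE-CTD libraries lay above all CT-CTD libraries, whereas CT-WD 3 lay above 3 of the 4 OE-WD libraries.

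Xbp1 (ENSMUSG00000020484, chr11:5520659-5525893, plus strand) encodes the factor that the sensor IRE1 activates by splicing. Its level was 64.5, 56.6 and 73.7 CPM across CT-CTD 1 to 3, and 69.0, 73.8 and 87.4 CPM across CT-WD 1 to 3. It was 62.3, 60.9, 72.4 and 83.0 CPM across OE-CTD 1 to 4, and 71.3, 62.1, 64.1 and 70.0 CPM across OE-WD 1 to 4. The groups overlapped.

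Fgf21 (ENSMUSG00000030827, chr7:45613886-45615490, minus strand), a hormone released by stressed muscle and by liver, was near the limit of detection. It had 2, 0 and 0 counts in CT-CTD 1 to 3, and 13, 1 and 1 counts in CT-WD 1 to 3. It had 1, 8, 1 and 1 counts in OE-CTD 1 to 4, and 0, 0, 1 and 0 counts in OE-WD 1 to 4. Only CT-WD 1 and OE-CTD 2 exceeded 3 counts, so the groups could not be compared with precision. Without the filter on low counts, Fgf21 was altered at the unadjusted level in edgeR between the diets in EC-Myc OE, between the genotypes on WD and in the interaction, 1 gene in place of 0 each time. The shares of all genes altered without the filter are not given here.

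**Figure D1:**
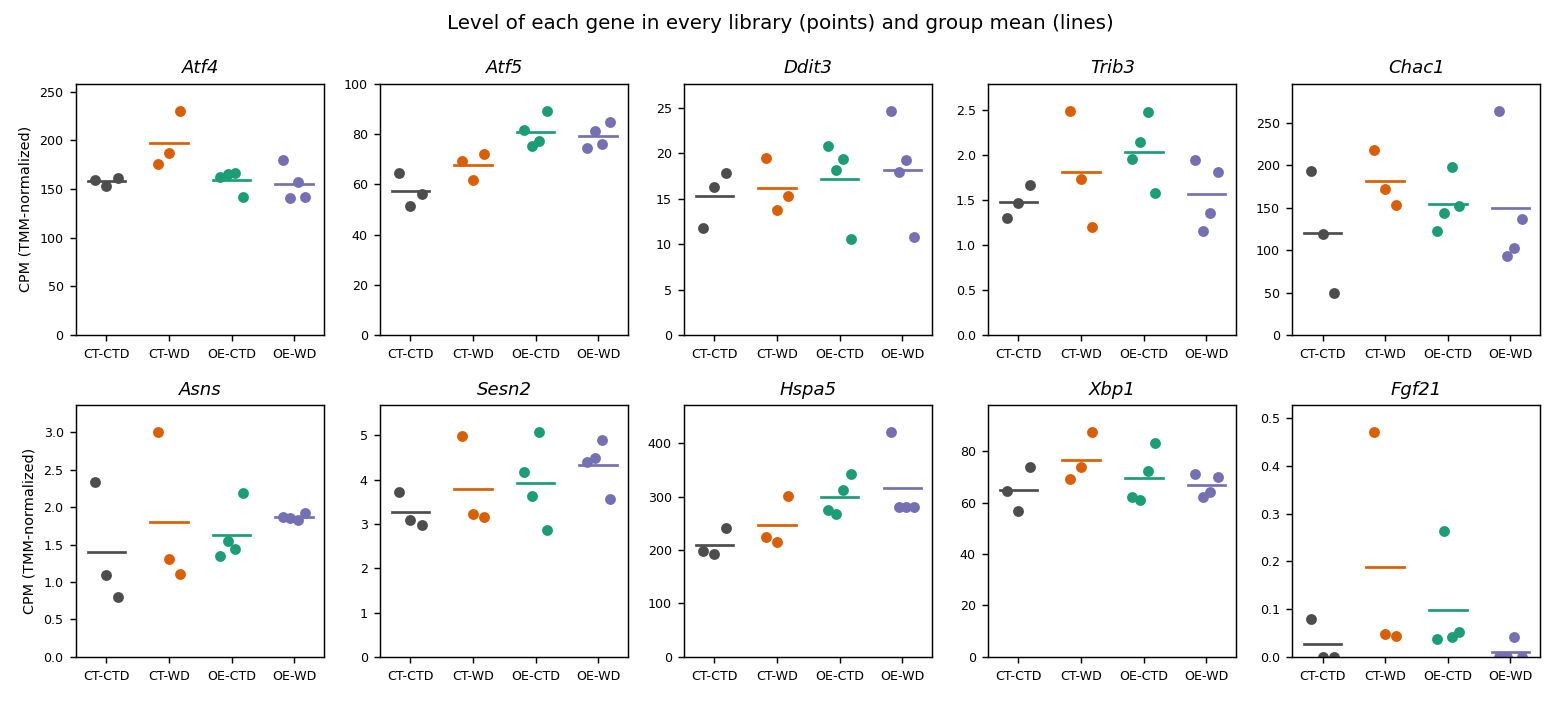
Level of each of the 10 genes in TMM-normalized CPM (vertical axes, from 0), with a point for each of the 14 libraries and a line for the mean of each group. Atf5 lies between 74.4 and 89.3 CPM in the 8 EC-Myc OE libraries, above the 51.3 to 71.8 CPM of the 6 CT libraries.

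The effect of WD in CT mice was asked by comparing CT-WD with CT-CTD. All 9 tested genes had a positive log2 fold change, from 0.08 (Ddit3) to 0.59 (Chac1), with a median of 0.24 against 0.007 for all tested genes. Without CT-WD 1 the signs of Ddit3 (-0.08), Trib3 (-0.01), Asns (-0.22) and Sesn2 (-0.03) turned, and Ddit3 (-0.08) also turned without CT-CTD 1. Atf4 was 1.25-fold higher, with a log2 fold change of 0.33 (SE 0.113, edgeR adjusted p = 0.565), and all 3 CT-WD libraries exceeded all 3 CT-CTD libraries. With CT-WD and OE-CTD exchanged it was at 0.01, and with 1 library left out it ran from 0.20 to 0.40. Chac1 was 1.504-fold higher but spread widely (SE 0.407, edgeR adjusted p = 0.851). With 1 library left out its log2 fold change ran from 0.21 to 1.10.

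None of these differences passed the test. A gene was called altered at a fold change over 1.5 with an adjusted p under 0.05, and a looser level used the unadjusted p. In edgeR's quasi-likelihood test, 0 of the 9 genes were altered at the adjusted level (0% of all tested genes) and 0 at the unadjusted level (3.05% of all tested genes). At an adjusted p under 0.05 and any fold change, a rule chosen after seeing the data, there were also 0 (0% of all tested genes). DESeq2 and limma gave 0 at each of these levels. In CT mice, libraries that carry an equal replicate number shared deviations from their group means, and with the replicate block Chac1 was altered at the unadjusted level, with a log2 fold change of 0.77. Its edgeR adjusted p was then 0.395, the lowest of 22 alternatives that reached 0.995. Without CT-CTD 1, Chac1 and Asns were altered at the unadjusted level, 2 genes in place of 0. The share of all tested genes in that setting is not given here, so whether the count of all genes also moved is not shown.

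In EC-Myc OE mice no effect of WD on these genes passed the test. Between OE-WD and OE-CTD, 4 of the 9 log2 fold changes were positive and 5 negative, from -0.38 (Trib3, SE 0.254) to 0.21 (Asns, SE 0.345), with a median of -0.03 against 0.005 for all tested genes. Atf4 was at -0.04 (SE 0.0982) and Hspa5 at 0.07 (SE 0.147). The edgeR adjusted p of each of the 9 genes was 1. The count of altered genes was 0 at the adjusted level (0.00647% of all tested genes), 0 at the unadjusted level (1.37% of all tested genes) and 0 at an adjusted p under 0.05 at any fold change (0.00647% of all tested genes) in edgeR, and 0 in DESeq2 and limma. The 95% confidence interval of the Atf4 difference ran from -0.25 to 0.17 on the log2 scale. Those of Trib3 (-0.92 to 0.16), Chac1 (-0.79 to 0.70) and Asns (-0.53 to 0.94) reached past the fold limit, so larger differences of these genes remained within the interval. Signs rested on single libraries: without OE-WD 1, Hspa5 stood at -0.09 and Ddit3 at -0.11. Atf4 stood at 0.01 without OE-WD 2, Chac1 at 0.13 without OE-WD 2, and Xbp1 at 0.04 and Atf5 at 0.02 without OE-CTD 4.

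The genotypes on WD were compared as OE-WD against CT-WD. Atf4 was lower in EC-Myc OE, by a log2 fold change of -0.35 (SE 0.105, edgeR adjusted p = 0.118), and 3 of 4 OE-WD libraries lay below all CT-WD libraries. With CT-WD and OE-CTD exchanged it was at -0.04. Hspa5 was higher, at 0.35 (SE 0.159, edgeR adjusted p = 0.274), and so was Atf5, at 0.23 (SE 0.0933, edgeR adjusted p = 0.236) with all 4 OE-WD libraries above all 3 CT-WD libraries. With 1 library left out, Hspa5 ran from 0.185 to 0.52. The other 6 genes lay between -0.28 (Chac1) and 0.19 (Sesn2). The median of the 9 genes was 0.03 against 0.006 for all tested genes, so the genes did not move one way.

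In edgeR, 0 of these genes were altered at the adjusted level (0.563% of all tested genes), 0 at the unadjusted level (5.74% of all tested genes) and 0 at an adjusted p under 0.05 at any fold change (0.725% of all tested genes). DESeq2 and limma gave 0 altered genes at the adjusted and at the unadjusted level. At any fold change, Atf4 passed in DESeq2 (adjusted p = 0.0471) and in edgeR without CT-WD 1 (adjusted p = 0.0287). These were the 2 of 22 alternatives under 0.05, over which the adjusted p of Atf4 ran from 0.0287 to 1.

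On control diet, OE-CTD was compared with CT-CTD. Here the log2 fold changes of all 9 genes were positive, from 0.01 (Atf4) to 0.51 (Hspa5), with a median of 0.272 against -0.001 for all tested genes. The sign of Atf4 turned without CT-CTD 2 (-0.01), OE-CTD 2 (-0.01) or OE-CTD 3 (-0.01), and those of Asns (-0.08) and Chac1 (-0.02) without CT-CTD 3. Atf5 was 1.41-fold higher, with a log2 fold change of 0.50 (SE 0.0939, 95% confidence interval 0.30 to 0.70, edgeR adjusted p = 0.0136), and was higher in 4 of 4 OE-CTD libraries. Hspa5 was 1.42-fold higher, with a log2 fold change of 0.51 (SE 0.16, edgeR adjusted p = 0.112), again in 4 of 4 libraries. The effect of genotype on Atf4 itself was 0.01 (SE 0.106, edgeR adjusted p = 0.975).

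Because its fold change was under 1.5, Atf5 was not called altered. In edgeR, 0 of the 9 genes were altered at the adjusted level (1.91% of all tested genes) and 0 at the unadjusted level (7.12% of all tested genes), and DESeq2 and limma gave 0 at either level. At an adjusted p under 0.05 at any fold change, Atf5 was the 1 gene of 9 that passed (2.67% of all tested genes). It passed in 18 of 22 alternatives, with adjusted p from 0.000208 to 0.634. It was lost without CT-CTD 2 (edgeR adjusted p = 0.0807), without CT-CTD 3 (0.0759), with the replicate block (0.0848) and with the group names exchanged (0.634). With the exchange, the log2 fold change of 0.50 lay between CT-WD and CT-CTD instead. Hspa5 passed in DESeq2 (adjusted p = 0.0429) and in 2 edgeR settings, with only the groups compared (0.0343) and with no filter on low counts (0.019), while its adjusted p over 22 alternatives ran from 0.019 to 0.86. Without CT-CTD 1, Chac1 was altered at the unadjusted level, and without CT-CTD 3, Hspa5 was, 1 gene in place of 0 each time. The shares of all tested genes without these libraries are not given here.

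Whether diet acted differently in the genotypes was tested as the diet by genotype interaction. All 9 estimates were negative, from -0.68 (Trib3, SE 0.392) to -0.01 (Ddit3, SE 0.357), with a median of -0.269 against -0.006 for all tested genes. The CT-CTD libraries enter this estimate and also the comparisons of CT-WD and of OE-CTD with CT-CTD, so the signs are not independent. For Atf4 it was -0.36 (SE 0.15, edgeR adjusted p = 0.834), and for Atf5 -0.27 (SE 0.131, edgeR adjusted p = 0.847). Ddit3 turned positive without any of 6 libraries, up to 0.17 without OE-WD 4, Asns did without CT-CTD 3 (0.11) or CT-WD 1 (0.43), Sesn2 without CT-WD 1 (0.17) or OE-CTD 3 (0.06), and Hspa5 without CT-WD 3 (0.01). In edgeR, 0 genes were altered at the adjusted level (0% of all tested genes), 0 at the unadjusted level (2.7% of all tested genes) and 0 at an adjusted p under 0.05 at any fold change (0% of all tested genes), with 0 in DESeq2 and limma. At the unadjusted level 1 gene was altered without CT-CTD 1 (Chac1), OE-WD 1 (Chac1) or CT-WD 3 (Trib3), with the shares of all tested genes in these settings not given here. In the interaction macrophage markers were negative in 8 of 8 (median -0.664, 1 down at the unadjusted level) and fibroblast markers in 6 of 6 (median -0.422, 1 down). Adipocyte markers were positive in 7 of 7 (median 0.923). Immediate early genes were negative in 6 of 7 (median -1.382), with 5 down at the unadjusted level. Other cell type lists had medians between -0.258 (slow fibre) and 0.098 (epidermis). Among these, endothelial markers were negative in 6 of 8 (median -0.063), with 1 down at the unadjusted level (12.5%, against 2.7% of all tested genes). The part of these lists in the interaction values was not tested.

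**Figure D2:**
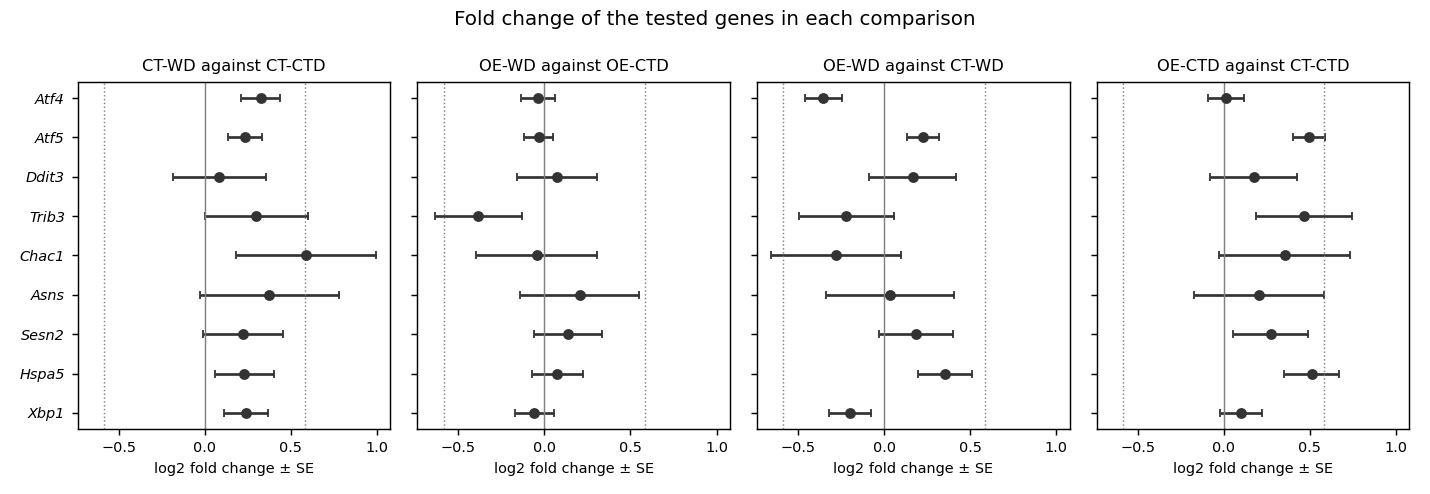
Log2 fold change (horizontal axes) of the 9 tested genes in the 4 comparisons between groups, with points for edgeR's estimates, bars for SE, a solid line at 0 and dotted lines at the 1.5-fold limit of 0.585. In OE-CTD against CT-CTD, Atf5 (0.50) and Hspa5 (0.51) lie farthest to the right, short of the limit, and in CT-WD against CT-CTD Chac1 (0.59) just passes it with a wide error.

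The wider pathway was followed through 8 lists with 77 genes, of which 74 were tested. They covered the eIF2 kinases with eIF2B and phosphatase subunits, the ER stress sensors, the partners and stress targets of Atf4, the Atf4 program of amino acid synthesis and transport, ER chaperones and foldases, ER-associated degradation, mitochondrial stress relay and proteases, and the Fgf21 receptors. The most abundant gene of each was Eif2b5 (30.5 FPKM), Rtcb (15.9 FPKM), Cebpb (53.1 FPKM), Gpt2 (55.9 FPKM), P4hb (74.3 FPKM), Herpud1 (78.6 FPKM), Hspd1 (82.0 FPKM) and Fgfr1 (12.03 FPKM).

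Between the diets in CT mice, single stress genes differed at the unadjusted level, several of them through the library CT-WD 3. At the unadjusted level 5 of the 74 genes were altered (6.76%, against 3.05% of all tested genes), 4 up and 1 down, and at the adjusted level 0 in edgeR. DESeq2 altered 6 of them at the unadjusted level and limma on log2(FPKM + 1) 3. Some passed correction in other settings, namely Ppp1r15a in DESeq2 (adjusted p = 0.0321) and, in edgeR with no filter on low counts, Ppp1r15a (adjusted p = 0.00245), Atf3 (0.00033) and Ddit4 (0.00578). The 8 partners and stress targets had a median log2 fold change of 0.529, with 7 positive and 2 altered at the unadjusted level. Atf3, an early stress factor, had a log2 fold change of 3.05 (SE 0.779, edgeR adjusted p = 0.394). Its level was 13.3, 18.5 and 10.7 CPM across CT-CTD 1 to 3 and 31.9, 12.2 and 307 CPM across CT-WD 1 to 3. Without CT-WD 3 its log2 fold change was 0.65 (edgeR adjusted p = 0.93, within 0.00033 to 0.981 over 22 alternatives).

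Of the other 4 genes, Ppp1r15a, Ddit4 and Slc38a2 rested on CT-WD 3 to different degrees. Ppp1r15a (GADD34), which steers the phosphatase that reverses eIF2 phosphorylation, had a log2 fold change of 0.91 (SE 0.223, edgeR adjusted p = 0.394). It stood at 25.2, 21.9 and 20.3 CPM across CT-CTD 1 to 3 and at 33.2, 35.1 and 58.7 CPM across CT-WD 1 to 3, higher in 3 of 3 libraries, and at 0.60 without CT-WD 3. Ddit4, an mTORC1 inhibitor, was at 1.73 (SE 0.552, edgeR adjusted p = 0.54) and at 1.08 without CT-WD 3. Slc38a2, an amino acid transporter, was at 0.63 (SE 0.24, edgeR adjusted p = 0.595) and at 0.18 without CT-WD 3. The ER oxidase Ero1lb was lower, at -0.70 (SE 0.206, edgeR adjusted p = 0.484), and ran from -0.95 to -0.51 with 1 library left out. The count moved to 2 genes without CT-WD 3, to 10 without CT-WD 1 and to 8 without CT-WD 2. The share of all tested genes given above is that with all libraries.

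In EC-Myc OE mice on WD against control diet, 0 of the 74 genes were altered in edgeR at the adjusted and 0 at the unadjusted level (0%, against 1.37% of all tested genes), and 0 in DESeq2 and limma at either level. Without OE-CTD 3, Slc1a4 was altered at the unadjusted level, 1 gene in place of 0. With CT-WD and OE-CTD exchanged the count at the unadjusted level was 10, where the share of all tested genes was 5.74% in place of 1.37%. The list medians lay between -0.04 (eIF2 kinases, eIF2B and phosphatase subunits) and 0.051 (ER-associated degradation). Atf3 was at 0.01 (SE 0.64) there.

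Between the genotypes on WD, single genes around Atf4 and of ER folding differed, most of them short of correction. At the unadjusted level 10 of the 74 genes were altered (13.5%, against 5.74% of all tested genes), 4 up and 6 down, with 10 in DESeq2 and 3 in limma on log2(FPKM + 1). With CT-WD and OE-CTD exchanged 0 were altered in edgeR, where the share of all tested genes was 1.37%. The partners and stress targets of Atf4 had a median of -0.534, with 7 of 8 negative and 4 altered at the unadjusted level (1 adjusted), whereas the chaperones had a median of 0.182, with 15 of 17 positive and 2 altered at the unadjusted level (0 adjusted in edgeR). Eif4ebp1, the translation repressor 4E-BP1 and an Atf4 target, was the 1 gene altered at the adjusted level. It fell by 0.69 on the log2 scale (SE 0.119, edgeR adjusted p = 0.0276) and was lower in 4 of 4 OE-WD libraries. Its level was 42.7, 61.4 and 61.5 CPM across CT-WD 1 to 3 and 34.7, 32.0, 36.1 and 34.3 CPM across OE-WD 1 to 4.

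The call of Eif4ebp1 held in 13 of 22 alternatives, with edgeR, DESeq2 or limma adjusted p from 9.88e-05 to 1. Leaving out OE-CTD 4 and OE-WD 4 together, a setting chosen after seeing the data, lost it (edgeR adjusted p = 0.0791). It was also lost in edgeR without CT-WD 2 (adjusted p = 0.0951), CT-WD 3 (0.123), OE-WD 2 (0.0883), OE-WD 3 (0.063) or OE-WD 4 (0.0683), with only the groups compared (0.13) and with the replicate block (0.238), and with the group names exchanged its adjusted p was 1. In the settings that lost the call the log2 fold change stayed between -0.71 and -0.60, except with the exchange, where it was -0.0076. On control diet Eif4ebp1 was also lower, at -0.52 (SE 0.119, edgeR adjusted p = 0.0318), which is under the 1.5-fold limit, with 48.9, 48.0 and 51.6 CPM across CT-CTD 1 to 3 and 40.6, 32.5, 31.3 and 33.3 CPM across OE-CTD 1 to 4. All 8 EC-Myc OE libraries lay below all 6 CT libraries.

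The remaining genes of this comparison did not pass the correction in edgeR with all libraries, but several did in other settings. Slc38a2 (-0.91, SE 0.222) and Atf3 (-2.45, SE 0.682) had edgeR adjusted p of 0.0667 and 0.101. Without CT-WD 3, Slc38a2 was at -0.45 and Atf3 at -0.05. Ddit4 (-1.32), Ppp1r15a (-0.67) and Cebpb (-0.61) were the other genes that were lower at the unadjusted level. Across CT-WD 1 to 3, Ddit4 stood at 47.8, 155.6 and 274.9 CPM and Ppp1r15a at 33.2, 35.1 and 58.7 CPM, highest in CT-WD 3. Cebpb stood at 62.7, 114.3 and 112.5 CPM there. Pdia4 (0.65, SE 0.147), a protein disulfide isomerase, Slc6a9 (0.90, SE 0.219), a glycine transporter, and Ero1lb (0.70, SE 0.195) were higher, with edgeR adjusted p of 0.0563, 0.0663 and 0.101, and Cth (0.72) completed the 4. Cebpb, Ddit4, Ppp1r15a and Cth were chosen for naming here with their values known. In DESeq2, Pdia4 (adjusted p = 0.00481), Slc6a9 (0.00585), Slc38a2 (0.0046), Atf3 (0.0473) and Ero1lb (0.0349) passed, and the first 4 of these also did in edgeR with no filter on low counts. Without CT-WD 1, Pdia4 (edgeR adjusted p = 0.00575), Slc6a9 (0.00364), Slc38a2 (0.00974), Atf3 (0.0145) and Ero1lb (0.0107) passed, as did Slc38a2 without OE-WD 1 (0.0439). Over 22 alternatives the highest adjusted p of each was 1, and the lowest were 0.00481, 0.00364, 0.000373, 0.00026 and 0.0107. The count of altered genes was 3 without CT-WD 3.

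On control diet, the altered share of the pathway between the genotypes was no larger than that of all tested genes. At the unadjusted level 5 of the 74 genes were altered (6.76%, against 7.12% of all tested genes), all up, with 5 in DESeq2 and 0 in limma on log2(FPKM + 1). Of the 5, 3 were ER chaperones and foldases. That list had a median of 0.164, with 13 of 17 positive. Pdia4 rose by a log2 fold change of 0.63 (SE 0.148, edgeR adjusted p = 0.0358) in 4 of 4 OE-CTD libraries and was the 1 gene altered at the adjusted level. It stood at 11.2, 9.75 and 10.3 CPM across CT-CTD 1 to 3 and at 15.3, 15.6, 15.8 and 18.0 CPM across OE-CTD 1 to 4. On WD it stood at 13.8, 8.75 and 11.2 CPM across CT-WD 1 to 3 and at 21.4, 17.6, 15.1 and 16.6 CPM across OE-WD 1 to 4, so all 8 EC-Myc OE libraries lay above all 6 CT libraries.

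The call of Pdia4 held in 11 of 22 alternatives, with adjusted p from 0.00378 to 0.942. In limma on log2(FPKM + 1) its adjusted p was 0.0475 with a log2 fold change of 0.54, under the fold limit. It was lost without any single library of either group, at an edgeR adjusted p from 0.0545 (without CT-CTD 1) through 0.0617 (OE-CTD 4), 0.0647 (OE-CTD 1), 0.083 (OE-CTD 2), 0.0839 (OE-CTD 3) and 0.147 (CT-CTD 3) to 0.15 (CT-CTD 2), while the log2 fold change stayed between 0.58 and 0.68. With the replicate block the adjusted p was 0.102, without OE-CTD 4 and OE-WD 4 it was 0.0624, and with the group names exchanged the log2 fold change was 0.11 (adjusted p = 0.942). Manf, a secreted ER protein, was at 0.62 (SE 0.177, edgeR adjusted p = 0.0805), with 17.7, 16.5 and 18.7 CPM across CT-CTD 1 to 3 against 27.6, 20.3, 27.0 and 33.9 CPM across OE-CTD 1 to 4. It passed in DESeq2 (adjusted p = 0.0232) and in edgeR with no filter (0.00846), with only the groups compared (0.0434) and without CT-WD 1 (0.0413), within a range of 0.00846 to 0.85. Nupr1, a stress-induced cofactor, was at 0.86 (SE 0.273, edgeR adjusted p = 0.117). It passed in DESeq2 (adjusted p = 0.0381) and in edgeR with no filter (0.0205), without OE-CTD 4 (0.0409) and without OE-CTD 4 and OE-WD 4 (0.0237), within a range of 0.0205 to 0.72. Slc1a4 (1.01, SE 0.449) and the chaperone cofactor Sdf2l1 (0.61, SE 0.285) had edgeR adjusted p of 0.281 and 0.312. With 1 library left out, Slc1a4 ran from 0.59 to 1.52. The count of altered genes was 9 without CT-CTD 1, 8 without OE-CTD 1, and 3 without CT-CTD 2 or OE-CTD 3.

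In the interaction, 4 of the 74 genes were altered at the unadjusted level (5.41%, against 2.7% of all tested genes) and 0 at the adjusted level in edgeR. DESeq2 gave 4 at the unadjusted level and limma on log2(FPKM + 1) gave 1. Atf3 (-3.04, SE 0.99) and Ppp1r15a (-1.05, SE 0.294) were lower, and Ero1lb (0.94, SE 0.27) and Slc6a9 (0.69, SE 0.305) higher, at edgeR adjusted p between 0.825 and 0.838. These 4 genes are named because the count is small. Without CT-WD 3 the count was 2, and without CT-WD 1 it was 7.

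Lists of other steps held no altered gene. The ER stress sensors had medians between -0.006 and 0.079 over the 5 comparisons with 0 of 6 altered at the unadjusted level in edgeR in each. The lists of ER-associated degradation (0 of 8), mitochondrial stress relay and proteases (0 of 6) and Fgf21 receptors (0 of 1) had no altered gene in edgeR at the unadjusted level either. Their medians lay between -0.004 and 0.062, between -0.12 and 0.092, and between -0.352 and 0.314. Amino acid synthesis and transport, which did hold altered genes, had medians between -0.121 and 0.136, and 3 of 16 genes were altered at the unadjusted level on WD between the genotypes (18.8%, against 5.74% of all tested genes).

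**Figure D3:**
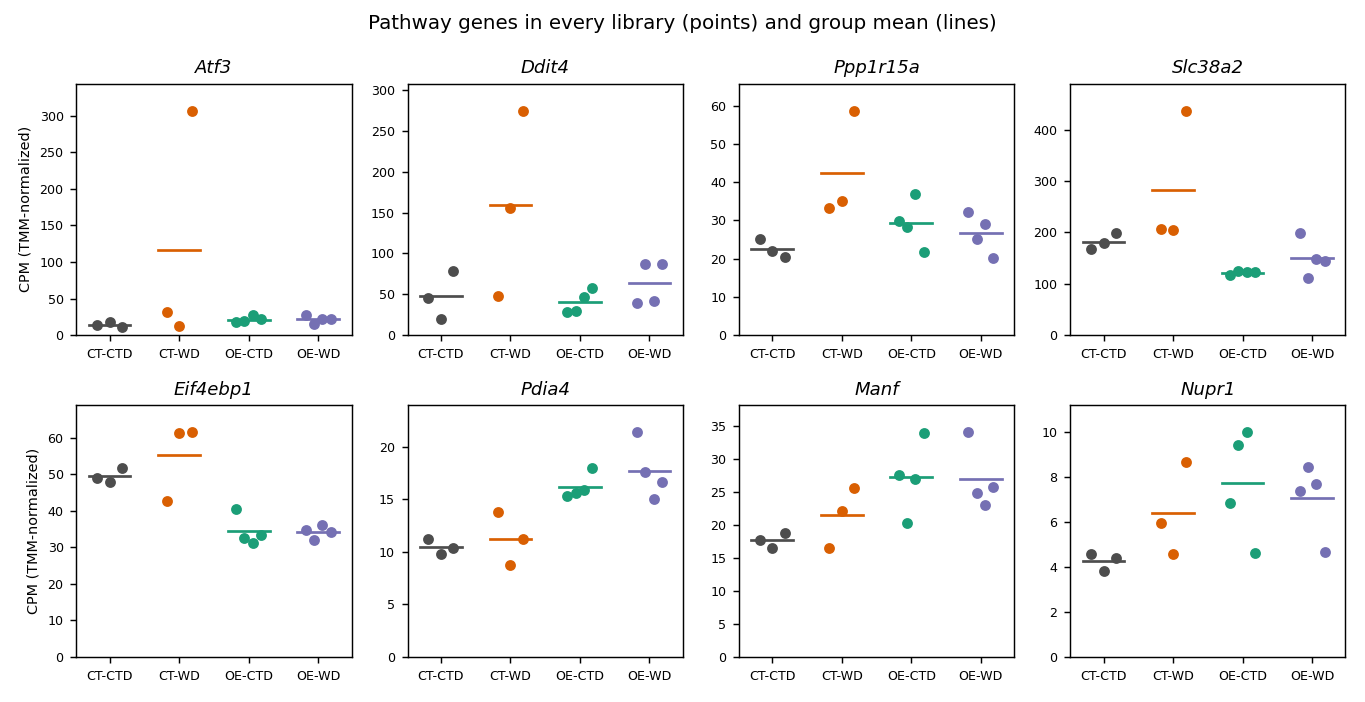
Level of 8 pathway genes in TMM-normalized CPM (vertical axes, from 0), with a point per library and a line for each group mean. Atf3 reaches 307 CPM in CT-WD 3, while Eif4ebp1 is lower and Pdia4 higher in all 8 EC-Myc OE libraries than in all 6 CT libraries.

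Some markers of other cell types were altered at the unadjusted level between the genotypes on either diet in edgeR. None was altered at the adjusted level. Of all tested genes, 7.12% were altered at the unadjusted level on control diet and 5.74% on WD. The part of these markers in the differences of Atf5, Hspa5, Pdia4 and Eif4ebp1 was not tested. In whole muscle, fewer cells of a type and less RNA per cell cannot be told apart. All 6 fibroblast markers were altered at the unadjusted level in OE-CTD against CT-CTD, all up, with a median log2 fold change of 1.134. They summed to 553, 483.5 and 397 CPM across CT-CTD 1 to 3, 1216, 1447, 1312 and 811 CPM across OE-CTD 1 to 4, and 917, 2243, 1230.0 and 971.5 CPM across OE-WD 1 to 4, led by Col1a2, with none at 0. In that comparison 4 of 6 tendon markers (led by Fmod) and 7 of 8 macrophage markers (led by Lyz2) were also up, with medians of 1.408 and 0.869. Tendon markers summed to between 101 and 235 CPM in CT-CTD and between 306 and 608 CPM in OE-CTD, and macrophage markers to between 41.65 and 78.5 and between 80.5 and 127 CPM. The endothelial markers, which mark the cells with the transgene, had 8 of 8 positive values with a median of 0.303 and 0 altered in edgeR at either level. They summed to 320.2, 325 and 336 CPM across CT-CTD 1 to 3 and to 416, 413, 392 and 374 CPM across OE-CTD 1 to 4, led by Cdh5, with none at 0.

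On WD, OE-WD against CT-WD had 2 of 6 fibroblast markers (median 0.618) and 1 of 6 tendon markers (median 1.299) altered at the unadjusted level, and 0 of 8 macrophage markers in edgeR (median 0.119). The endothelial markers there had a median of 0.354 with 0 of 8 altered in edgeR at either level, and summed to between 415 and 439 CPM in OE-WD against 332 to 383 CPM in CT-WD. Epidermis markers were positive in 6 of 6 (median 0.876, 0 altered in edgeR), and adipocyte markers in 6 of 7 (median 0.606, 1 altered at the unadjusted level). Slow fibre markers were positive in 8 of 8 in OE-CTD against CT-CTD, with a median of 0.295 and 0 altered in edgeR at either level, and had a median of -0.022 in OE-WD against CT-WD. In OE-CTD against CT-CTD, 0 of 10 skeletal muscle markers, 0 of 6 Schwann cell and 0 of 5 tested plasma cell markers were altered at the unadjusted level in edgeR. Altered at that level were 1 of 8 fast fibre markers (down), 2 of 7 adipocyte markers (1 up and 1 down) and 1 of 6 epidermis markers (up). Derl3 is held by the plasma cell list and by that of ER-associated degradation. In CT-WD against CT-CTD, macrophage markers were positive in 8 of 8 (median 0.578, 2 altered at the unadjusted level), fibroblast markers in 6 of 6 (median 0.595, 1 altered) and epidermis markers in 6 of 6 (median 1.284, 1 altered). Endothelial markers were positive in 7 of 8 (median 0.143, 1 altered, up). Of all tested genes, 3.05% were altered at that level in this comparison. Adipocyte markers had a median of -1.077 there, with 7 of 7 negative and 0 altered in edgeR at either level. The macrophage, fibroblast and epidermis markers summed highest of CT-WD in CT-WD 1. Fibroblast markers summed to 1339, 411 and 403 CPM across CT-WD 1 to 3, against 397 to 553 CPM in CT-CTD. Epidermis markers summed to 92.5, 8.89 and 10.7 CPM, against 4.98 to 38.5 CPM. Macrophage markers summed to 126, 62.3 and 52.9 CPM, against 41.65 to 78.5 CPM. In OE-WD against OE-CTD, epidermis markers were also positive in 6 of 6, with a median of 1.331. Of these, 1 was altered at the unadjusted level (16.7%, against 1.37% of all tested genes), and no other marker list held an altered gene there. Asns, Trib3, Chac1, Ddit3, Sesn2 and Fgf21 were highest of their group in CT-WD 1, the CT-WD library with the most fibroblast, tendon and epidermis RNA, and whether these are linked was not tested.

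At the unadjusted level in edgeR, the glucocorticoid response list, chosen with earlier results known, held at most 3 altered genes of 8. These were 2 in CT-WD against CT-CTD (25%, against 3.05% of all tested genes) and 1 in OE-WD against OE-CTD (12.5%, against 1.37%). They were 3 in OE-WD against CT-WD (37.5%, against 5.74%), 2 in OE-CTD against CT-CTD (25%, against 7.12%) and 1 in the interaction (12.5%, against 2.7%). The members held 0 in each. The immediate early list held altered genes in some comparisons only. Immediate early genes respond within minutes to stimulation or handling. At the unadjusted level 6 of 7 were up in CT-WD against CT-CTD (median 1.379, against 3.05% of all tested genes altered). In OE-CTD against CT-CTD 5 of 7 were up (median 1.218, against 7.12%), of which 2 also at the adjusted level. In the interaction 5 of 7 were down (median -1.382, against 2.7%). None was altered at the unadjusted level in OE-WD against OE-CTD or in OE-WD against CT-WD. These genes summed highest in CT-WD 3 (450 CPM), the library with the Atf3 peak, and in CT-WD 1 (400 CPM). Glucocorticoid response genes summed to 1686 and 1790 CPM in CT-WD 2 and CT-WD 3, the libraries with the most Atf4, against 1083 CPM in CT-WD 1. They summed to between 1053 and 1254 CPM in OE-WD, and 2 of 8 were lower at the adjusted level between the genotypes on either diet. Of all tested genes, 0.563% were altered at that level on WD and 1.91% on control diet. The part of these states in the Atf4 values was not tested.

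Across the 14 libraries Atf4 was compared with each of the 8 other tested genes, as correlations of log2 CPM with two-sided permutation tests of 100000 resamples, adjusted over the 8 pairs. None passed after adjustment. Pearson's r ran from -0.281 (Asns) to 0.486 (Xbp1). For Xbp1 the permutation p was 0.0781 (adjusted 0.624), Spearman's rho was 0.437 (permutation p = 0.12, adjusted 0.296), and r was -0.021 without CT-WD 2 and CT-WD 3, the libraries farthest from the Atf4 median, so the relation rested on them. Chac1 had an r of 0.334 (permutation p = 0.232, adjusted 0.664) and a rho of 0.635 (permutation p = 0.0175, adjusted 0.14), with an r of 0.433 without these libraries.

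For other pairs r moved when libraries or group means were set aside, and none passed adjustment. For Ddit3, r was 0.266 (permutation p = 0.36, adjusted 0.664) and rho 0.376 (permutation p = 0.185, adjusted 0.296), and r was 0.712 without CT-WD 2 and CT-WD 3 (permutation p = 0.00971, adjusted 0.0777). For Trib3, r was 0.044 (permutation p = 0.886, adjusted 0.886) and rho 0.389 (permutation p = 0.171, adjusted 0.296), and r was 0.646 without them (permutation p = 0.024, adjusted 0.0959) and -0.057 over deviations from the group means. Hspa5 had an r of 0.07 (permutation p = 0.81, adjusted 0.886) and a rho of 0.037 (permutation p = 0.904, adjusted 0.904). Over deviations from the group means its r was 0.616 (permutation p = 0.0203), a value not adjusted over the pairs.

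The genes most like Atf4 over the 14 libraries, by Pearson's r of log2 CPM among 15449 genes, were Flcn (0.977), Sgms1 (0.974), Gm20627 (0.944), Swi5 (0.917) and Arntl (0.913). For Xbp1 they were Gna13 (0.914), Psmc2 (0.885), Dennd3 (0.865), Ist1 (0.864) and Helz2 (0.862). These are descriptions of likeness, picked as the highest of all, and carry no test.

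The promoters of the genes were searched for the motifs through which Atf4, Atf6 and Xbp1 are known to act, because several of the genes are textbook targets of the same factors. RefSeq windows of 300 bases, from 250 before to 50 after the annotated start, were taken on GRCm38.p6 for all 10 genes. The C/EBP-ATF response element was searched as TGATGNAAN, the ER stress response element as CCAAT and CCACG with 9 bases between them, and the core of the unfolded protein response element as TGACGTGG, each on both strands. A match describes the reference sequence and does not show that a factor binds there.

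The C/EBP-ATF motif lay in 4 of the 10 windows, those of Asns, Chac1, Fgf21 and Trib3, against 1299 of 32851 windows of all genes (3.95%). The ER stress response element lay in 1, that of Hspa5, against 39 windows of all genes (0.119%), and the last motif in 0 against 222 (0.676%). Of the 14 matched chaperone and foldase genes, 7 held the ER stress response element (Calr, Canx, Creld2, Dnajc3, Ero1b, Hsp90b1 and Pdia6), while these letters were not in the window of Pdia4. Of the 7 matched partners and targets of Atf4, 3 held the C/EBP-ATF motif (Atf3, Nupr1 and Vldlr).

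The window of Hspa5 is shown for its ER stress response element. It spans chr2:34771840-34772139 on the plus strand, and capitals mark the motif, which begins 65 bases before the start.
Hspa5: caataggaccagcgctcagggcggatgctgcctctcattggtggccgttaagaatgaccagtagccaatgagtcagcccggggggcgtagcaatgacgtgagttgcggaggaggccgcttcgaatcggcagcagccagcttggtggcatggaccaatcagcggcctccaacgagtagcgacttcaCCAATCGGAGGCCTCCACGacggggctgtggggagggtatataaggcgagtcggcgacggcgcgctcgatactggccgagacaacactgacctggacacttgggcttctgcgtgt

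The windows of Asns, Chac1 and Trib3 are shown for the motif that these Atf4 targets share. That of Asns spans chr6:7693160-7693459 on the minus strand, and its motif, in capitals, reads as searched and begins 23 bases before the start.
Asns: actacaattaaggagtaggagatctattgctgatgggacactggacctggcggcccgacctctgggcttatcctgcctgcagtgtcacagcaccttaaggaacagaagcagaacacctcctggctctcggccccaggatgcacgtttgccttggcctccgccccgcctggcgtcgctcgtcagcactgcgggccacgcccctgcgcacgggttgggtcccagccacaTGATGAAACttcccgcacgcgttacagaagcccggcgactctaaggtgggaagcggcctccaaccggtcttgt
That of Chac1 spans chr2:119350992-119351291 on the plus strand, and its motif, in capitals, is the reverse complement and begins 194 bases before the start.
Chac1: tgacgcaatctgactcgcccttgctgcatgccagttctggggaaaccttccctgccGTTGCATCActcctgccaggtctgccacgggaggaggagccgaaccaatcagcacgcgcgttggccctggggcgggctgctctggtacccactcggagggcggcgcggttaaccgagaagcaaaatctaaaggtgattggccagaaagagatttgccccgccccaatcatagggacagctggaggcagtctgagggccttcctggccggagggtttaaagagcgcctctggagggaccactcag
That of Trib3 spans chr2:152344011-152344310 on the minus strand, and its motif, in capitals, is the reverse complement and lies after the start.
Trib3: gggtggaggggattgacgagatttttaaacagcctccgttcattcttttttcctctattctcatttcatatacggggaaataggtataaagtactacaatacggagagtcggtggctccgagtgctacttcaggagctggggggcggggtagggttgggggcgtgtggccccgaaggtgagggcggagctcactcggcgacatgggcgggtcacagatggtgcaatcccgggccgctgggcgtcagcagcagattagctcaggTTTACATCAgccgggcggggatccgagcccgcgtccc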

How the data were processed

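The authors deposited counts, reads per gene without normalization, and FPKM values, in which the authors scaled counts to gene length and to a library total that was between 79.9% and 98.0% of the summed counts. The submitters' processing notes name HISAT2 2.0.5, featureCounts 1.5.0-p3 and mm10. The strand setting is not given in the sources used here. Counts of 14 libraries were tested in edgeR 4.0.16 (R 4.3.3) with TMM, filterByExpr and quasi-likelihood fits of 4 group means, and p-values were adjusted by Benjamini-Hochberg within each comparison. Altered meant a fold change over 1.5 with an adjusted, or an unadjusted, p under 0.05. The filter kept between 99.93% and 99.95% of counts per library. The common biological coefficient of variation was 17%. Log2 CPM used a prior count of 2. Scripts were tested on simulated data.

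The genes and lists were chosen with earlier results of these data known. Named in the text are all 10 members, pathway genes altered at the adjusted level in any comparison of groups, up to 6 per comparison at the unadjusted level by p, the most abundant gene of each list, and the 5 genes most like Atf4 and Xbp1. Lists of cell type markers covered skeletal muscle, fast and slow fibres, macrophages, endothelial cells, adipocytes, plasma cells, fibroblasts, tendon, epidermis and Schwann cells, and state lists covered glucocorticoid and immediate early response.

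Replicate numbers were checked as a pairing through correlations, across genes, of deviations from group means. In CT mice these were 0.385, 0.123 and 0.203 between the diets for numbers 1 to 3, and from this check alone the numbers were taken as pairs. Within groups, pairs of libraries differed by a chi-square of 8.02 to 53.2 per degree of freedom, lowest among OE-CTD 1 to 3 and OE-WD 1 to 3, and none were duplicates. Alternatives were DESeq2 1.42.0, limma 3.58.1 on log2(FPKM + 1) and log2(FPKM + 0.1), no filter, only the groups compared, the replicate block, the exchange of CT-WD and OE-CTD, and each library left out. Leaving out OE-CTD 4 and OE-WD 4 together, and the rule of an adjusted p under 0.05 at any fold change, were chosen after seeing the data.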

Additional observations from a re-analysis of the deposited data

Results flagged for a closer look

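In the 44 groups of 4 libraries checked (the 10 genes and the named pathway genes, in OE-CTD and OE-WD), 4 held a library far from the others, with a gap to the nearest library over Dixon's critical share of the group's range. Chance gives about 1 in 20 groups. Atf4 in OE-CTD 4 was the lowest of its group at 142.2 CPM, with the nearest library at 162.6 CPM. Hspa5 in OE-WD 1 was the highest at 420.1 CPM, with the nearest at 280.6 CPM. Fgf21 in OE-CTD 2 was the highest at 0.2639 CPM, which is 8 counts, with the nearest at 0.05103 CPM. Fgf21 in OE-WD 3 was the highest at 0.04253 CPM, which is 1 count, with the others at 0. Any count beside libraries at 0 would be flagged, so this flag carries no information. The rate of 1 in 20 need not hold for counts as low as those of Fgf21.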

How the results depend on the processing

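Among values for the fold changes of the 9 genes, 347 kept their direction and side of the threshold under other settings and 4 reversed, and 595 of 630 kept them with 1 library left out. For the named pathway genes 97 of 128 and 204 of 224 did, and of the counts of altered genes 136 of 156 and 260 of 280 moved by at most 1.5 times. The lowest counts were those of Fgf21 (0 to 13), Asns (20 to 83) and Trib3 (27 to 69), and what depth adds to their spread was not tested. With CT-WD and OE-CTD exchanged, Atf4 was at 0.0119 in CT-WD against CT-CTD and -0.0386 in OE-WD against CT-WD, and Ddit4 (-0.25) and Slc38a2 (-0.58) turned in CT-WD against CT-CTD, Atf5 (0.23) in OE-WD against OE-CTD, and Atf5 (-0.0339), Slc38a2 (0.31) and Atf3 (0.0065) in OE-WD against CT-WD. The exchange gave 10 pathway genes at the unadjusted level in OE-WD against OE-CTD and 0 in OE-WD against CT-WD, and 1 and 0 members at any fold change in CT-WD and OE-CTD against CT-CTD. Under the exchange, the shares of all tested genes were 5.74% and 1.37% for the former and 2.67% and 0% for the latter. Without OE-CTD 4 and OE-WD 4, the calls of Eif4ebp1 (edgeR adjusted p = 0.0791) and Pdia4 (0.0624) were lost, Nupr1 was gained (0.0237), Xbp1 turned in OE-WD against OE-CTD (0.0166) and Ddit3 in the interaction (0.0017). Correlations with Atf4 turned over deviations from group means for Trib3 (-0.057) and Sesn2 (0.061), and without the 2 farthest libraries for Asns (0.016), Sesn2 (0.45) and Xbp1 (-0.021).

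Without the filter on low counts, 1 member was altered at the unadjusted level in CT-WD against CT-CTD (Chac1) and 1 (Fgf21) in OE-WD against OE-CTD, in OE-WD against CT-WD and in the interaction, where 7 pathway genes were altered, and 1 pathway gene was in OE-WD against OE-CTD. limma on log2(FPKM + 1) altered 3 pathway genes between the diets in CT mice, 3 between the genotypes on WD, 0 between them on CTD and 1 in the interaction. At any fold change, 2 members passed in OE-CTD against CT-CTD in DESeq2, with no filter and with only the groups compared, and 1 in OE-WD against CT-WD in DESeq2. The replicate block gave 1 member at the unadjusted level in CT-WD against CT-CTD and 0 at any fold change in OE-CTD against CT-CTD, and changed no other member's call. OE-WD and OE-CTD libraries share only a number, with correlations of 0.071, 0.138, 0.142 and 0.338, each library correlating best with its own number, which is a hint from the data. Those of the genotype comparisons ran from -0.23 to 0.046. The cause of these shifts was not tested.

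With 1 library left out, the log2 fold changes whose sign turned ran as follows. In CT-WD against CT-CTD they ran from -0.0833 to 0.21 (Ddit3), -0.0123 to 0.52 (Trib3), -0.22 to 0.95 (Asns) and -0.0305 to 0.34 (Sesn2). In OE-WD against OE-CTD they ran from -0.12 to 0.0057 (Atf4), -0.0689 to 0.0166 (Atf5), -0.11 to 0.26 (Ddit3), -0.47 to 0.13 (Chac1), -0.0947 to 0.15 (Hspa5) and -0.11 to 0.0372 (Xbp1). In OE-WD against CT-WD they ran from -0.0164 to 0.35 (Ddit3), -0.44 to 0.0941 (Trib3) and -0.22 to 0.63 (Asns). In OE-CTD against CT-CTD they ran from -0.0135 to 0.0619 (Atf4), -0.0793 to 0.78 (Asns) and -0.02 to 0.87 (Chac1), and in the interaction from -0.19 to 0.17 (Ddit3), -0.75 to 0.43 (Asns), -0.21 to 0.17 (Sesn2) and -0.33 to 0.0103 (Hspa5). Counts at the unadjusted level ran, for members, from 0 to 2 (CT-WD against CT-CTD), 0 to 1 (OE-CTD against CT-CTD) and 0 to 1 (interaction), and for pathway genes from 2 to 10, 0 to 1, 3 to 13, 3 to 9 and 2 to 7 over the 5 comparisons. Members at any fold change ran from 0 to 1 in OE-WD against CT-WD and from 0 to 1 in OE-CTD against CT-CTD. How the counts of all tested genes moved with 1 library left out is not given here.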
